A study of Mus musculus with 6 samples.

Results

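The genes encoding proteins of the cytosolic ribosome were described in the cochlea of mice lacking *Cmah* and of WT mice. *Cmah* encodes the hydroxylase that makes the sialic acid Neu5Gc, and the null mice carried the *Cmah* tm1Ykoz allele. Both groups were C57BL/6 mice by the labels (C57BL/6J by the study's methods), 12 months old, with 3 samples each, and total RNA of each sample was hybridized to 1 Illumina MouseRef-8 v2 array. No treatment was given in the labels. The labels do not state whether a sample is 1 animal, so the p-values measure the spread between these samples, which may be technical. Members were chosen by symbol alone, as those starting with Rpl or Rps and a digit or with Rplp, together with *Rpsa*, leaving out the S6 kinases. The rule found 64 of the 18138 gene symbols on the array, with 83 probes, and the brightest probe stood for each gene. Of the 64 genes, 56 encode proteins of the ribosome itself (31 of the large and 25 of the small subunit) and are called core genes here. Another 7 are paralogues (*Rpl3l*, *Rpl7l1*, *Rpl22l1*, *Rpl36al*, *Rpl39l*, *Rps27l* and *Rps4y2*, now named *Rps4l*). The remaining symbol, *Rps19bp1*, encodes a protein that binds Rps19 and is not a ribosomal protein.

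The cytosolic ribosome joins ribosomal RNA with a full set of proteins in a small subunit, which reads the mRNA, and a large subunit, which forms the peptide bond. One copy of nearly every protein is needed per ribosome, and the mRNAs are short, abundant and present in every cell type. Most of them start with a 5′ terminal oligopyrimidine (TOP) tract, a C followed by a run of C and T, through which mTOR signalling sets their translation, and many of their promoters bind ETS factors.

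The bases around the annotated starts are shown for 6 genes to let the shared start be seen beside genes that lack it. They are *Rpl35* and *Rps4x*, which had the largest gap between arrays described below, *Rps13*, with one of the smallest, and *Rpl38*, *Rps6* and *Rps10*, where the run covers the start. Each window holds 15 bases before and 15 from the start, from RefSeq on GRCm38.p6, and capitals mark a C followed by at least 4 bases that are C or T.
Rpl35, chr2:39005117-39005146, minus strand: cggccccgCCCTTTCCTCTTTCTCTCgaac
Rpl38, chr11:114668565-114668594, plus strand: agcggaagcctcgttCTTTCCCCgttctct
Rps6, chr4:86857353-86857382, minus strand: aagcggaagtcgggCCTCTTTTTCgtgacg
Rps10, chr17:27635230-27635259, minus strand: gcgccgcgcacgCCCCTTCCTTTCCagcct
Rps4x, chrX:102189377-102189406, minus strand: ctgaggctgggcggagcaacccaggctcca
Rps13, chr7:116334176-116334205, minus strand: gagagcaaacgtcggtgagtggcgtcactt

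Of the 56 core genes, 43 were matched to a start, and 30 of these (69.8%) held such a run in the window, on the strand of the gene, against 40.3% of 27025 genes. With the C at the annotated start itself, there were 8 (18.6%), against 3.01% of all genes. The letters CCGGAA, the core of an ETS site, were found on either strand of the 300 bases around the start in 24 of the 43 (55.8%), against 16.7% of all genes. The runs of *Rpl35*, *Rpl38*, *Rps6* and *Rps10* lie across the start, whereas *Rps4x* and *Rps13* had no run in these 30 bases.

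Of the 64 genes, 55 were detected on 6 arrays (detection p under 0.05), 49 of them core genes. *Rpl7a* and *Rpl22l1* were detected on 5 arrays, *Rpsa* on 2 and *Rpl14* on 1. The probes for *Rpl6*, *Rpl17*, *Rplp2*, *Rps23* and *Rpl39l* were detected on no array, so no level is given for these genes. Among the 55 detected genes, the median of the mean log2 signal was 13.1, and 38 genes lay above 12. Over the 12410 probes detected on 6 arrays it was 9.54, without choosing the brightest probe of a gene. The mean signal ranged from 8.04 in *Rpl21* to 15.8 in *Rpl23*, and since each probe binds with its own strength, this order is one of probes and not of transcripts.

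Between the 2 genotypes, no ribosomal protein gene passed an adjusted p under 0.05 in limma, and the smallest adjusted p of a member was 0.540. Over all 25697 probes the count was also 0 (0% called), with a smallest adjusted p of 0.250. At an unadjusted p under 0.05, 2 genes were lower, *Rps2* and *Rps4y2*, where 5.46% of detected probes were lower. Only *Rps19bp1* was higher, where 7.79% of detected probes were higher. No member passed 1.5-fold together with the unadjusted p, where 2.64% of detected probes were lower and 2.51% were higher. By the 1.5-fold alone, 9 were lower (6.26% of detected probes), namely *Rpl31*, *Rpl34*, *Rpl35*, *Rpl39*, *Rps3*, *Rps3a*, *Rps4x*, *Rps24* and *Rps27l*, and *Rpl24* was higher (5.17% of detected probes).

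The means of most genes were lower in *Cmah*-null mice, in 48 of the 55 detected genes, against 46.9% of detected probes. The median log2 fold change was -0.30 over the 64 genes and -0.33 over the 55, against 0.026 over the detected probes. The large subunit genes had a median of -0.17 over 31 genes and the small subunit genes one of -0.34 over 25. Over those detected on 6 arrays the medians were closer, at -0.26 over 26 large and -0.36 over 23 small subunit genes. Without *Cmah*-null replicate 3 the median over the 55 turned to 0.16, and 44 of the 55 had a higher mean in *Cmah*-null mice, leaving 11 lower where 46.2% of detected probes were lower. The standard error of the log2 fold change had a median of 0.43 over these genes, against 0.21 over the detected probes, and of 0.13 without that sample. Scaling each array to the same median, with no quantile step, moved the median of all detected probes to 0.30 and that of the 64 genes to 0.05. On that scale 43 of the 55 still lay below the median of all detected probes.

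**Figure D1:**
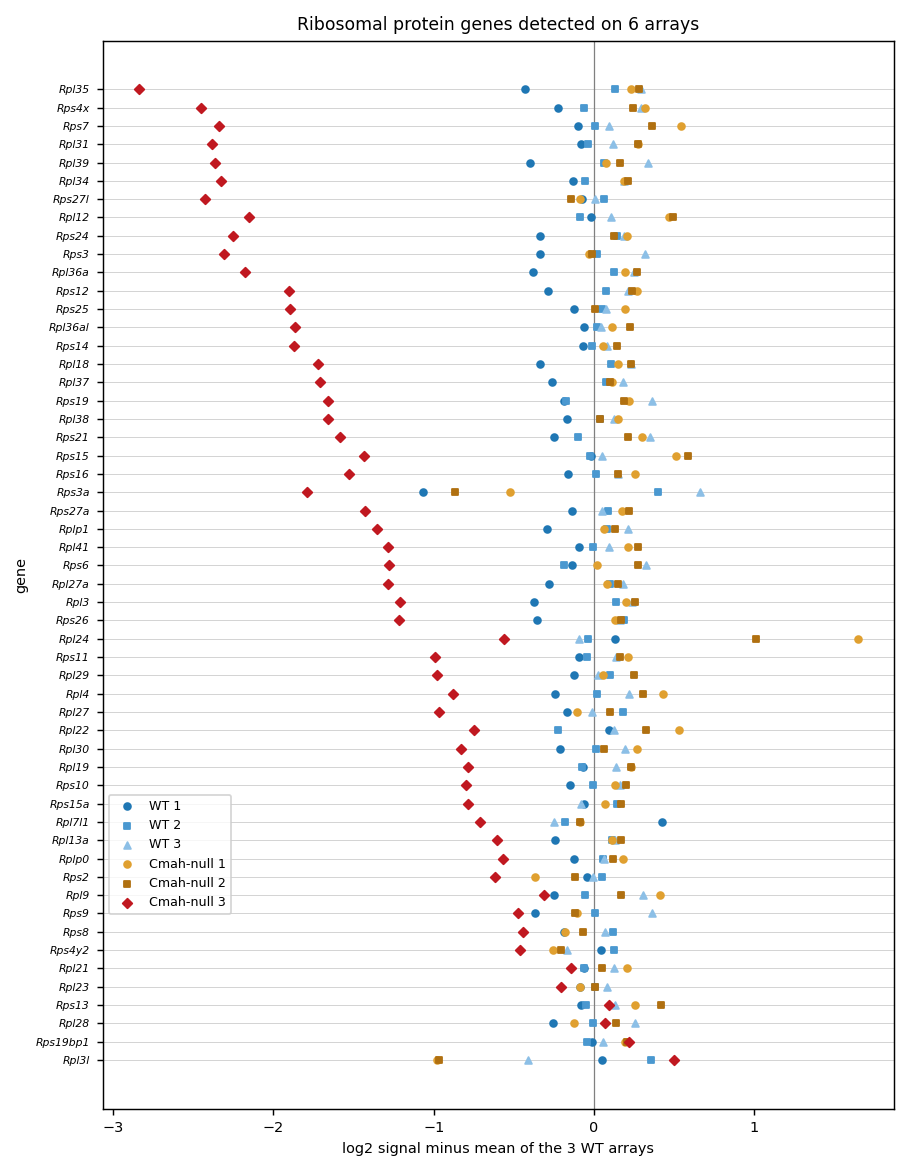
Each row is 1 of 54 ribosomal protein genes detected on 6 arrays, and each point is 1 array, as log2 signal minus the mean of the 3 WT arrays. Rows are ordered by the gap between *Cmah*-null replicate 3 and the mean of the other 5 arrays. The diamonds of *Cmah*-null replicate 3 lie to the left of the other 5 points in 50 rows.

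The lower means rested on 1 array. The median log2 signal of the 55 genes was 13.1, 13.2 and 13.3 in the WT samples and 13.3, 13.4 and 11.3 in the *Cmah*-null samples. *Cmah*-null replicates 1 and 2 lay within or just above the WT range, and replicate 3 lay far below it. That array was the lowest of the 6 in 51 of the 55 genes (92.7%), against 31.7% of detected probes. It was at least 2-fold below the lowest of the other 5 arrays in 27 genes (49.1%), against 5.08% of detected probes. Both subunits took part: it was the lowest in 25 of 26 detected large subunit genes and in 22 of 23 detected small subunit genes. It was the highest in *Rpl3l* and *Rps19bp1*, neither of them a core gene, where 36.6% of detected probes were highest on it. Its log2 signal minus the mean of the other 5 arrays, called the gap here, had a median of -1.33 and ran from -2.94 in *Rpl35* to 0.89 in *Rpl3l*.

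Replicate 3 was also the lowest before normalization, where *Cmah*-null replicates 1 and 2 lay above every WT sample. The median raw bead signal of the 55 genes was 9245, 7485 and 7206 in the WT samples, 14630 and 14088 in *Cmah*-null replicates 1 and 2, and 2293 in replicate 3. The standard error over beads of a member had a median between 2.61% and 3.93% on the 6 arrays. After neqc the medians were 13.1 to 13.5 on the other 5 arrays and 11.3 on that of replicate 3. After median scaling they were 13.2, 12.9 and 12.8 in WT and 13.8, 13.8 and 11.2 in *Cmah*-null samples, with replicates 1 and 2 above every WT sample. *Cmah*-null replicates 1 and 2 were the closest pair, with an SD over the members of 0.15 in their log2 difference. WT replicates 2 and 3, the nearest other pair, had 0.21. Over the 12410 probes detected on 6 arrays these SDs were 0.14 and 0.39. Pairs with *Cmah*-null replicate 3 had 0.76 to 0.85 there, and all pairs without it 0.14 to 0.56.

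**Figure D2:**
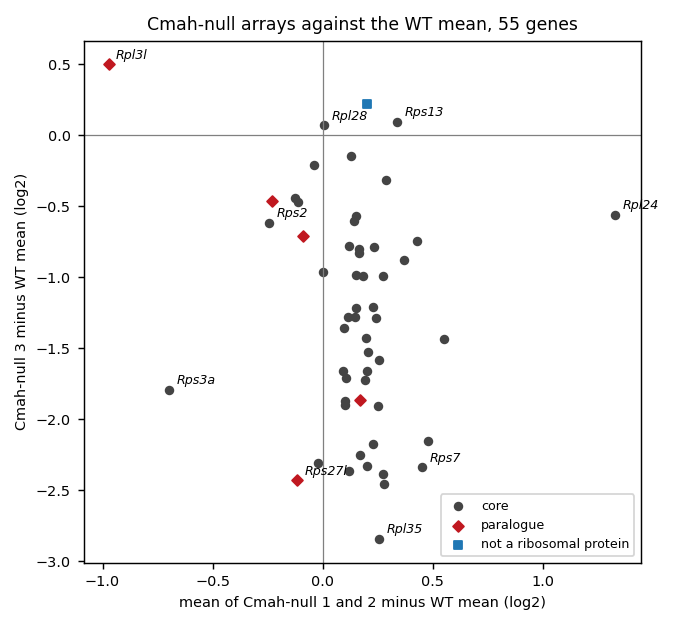
Each point is 1 of the 55 detected genes, with the mean of *Cmah*-null replicates 1 and 2 minus the WT mean on the horizontal axis and *Cmah*-null replicate 3 minus the WT mean on the vertical axis, both in log2. Most points lie just right of 0, with a median of 0.16, and spread far below 0, with a median of -1.28.

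Among large subunit genes, the widest gaps were those of *Rpl35*, *Rpl31* and *Rpl39*. *Rpl35*, which encodes a protein at the rim of the tunnel where the new chain leaves, had log2 signals of 13.37, 13.94 and 14.10 in WT and 14.04, 14.08 and 10.96 in *Cmah*-null samples. The first 2 *Cmah*-null samples lay inside the WT range and the third was 7.69-fold below the mean of the other 5 arrays. Its log2 fold change was -0.78 (SE 0.88, adjusted p = 0.825 in limma) and 0.26 (SE 0.22) without that sample. *Rpl31*, also at the tunnel exit, had 13.72, 13.76 and 13.92 in WT and 14.07, 14.07 and 11.41 in *Cmah*-null samples. *Rpl39*, a very small protein that lines the tunnel, had 13.86, 14.32 and 14.60 in WT and 14.34, 14.42 and 11.89 in *Cmah*-null samples. In each of these genes only the third *Cmah*-null sample lay below the WT samples. *Rpl34* and *Rpl36a* behaved in the same way, with gaps of -2.41 and -2.27.

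Other large subunit genes moved less on that array. *Rpl3*, whose protein reaches to the peptidyl transferase centre, had 14.428, 14.940 and 15.042 in WT and 15.003, 15.060 and 13.592 in *Cmah*-null samples. *Rpl13a*, often used as a reference gene, had a gap of -0.66. Of the acidic stalk, which recruits elongation factors, *Rplp0* had 9.39, 9.57 and 9.58 in WT and 9.70, 9.63 and 8.95 in *Cmah*-null samples, and *Rplp1* had a gap of -1.39. *Rpl28* had 13.93, 14.18 and 14.44 in WT and 14.06, 14.32 and 14.25 in *Cmah*-null samples, so its groups overlapped and no array stood apart. *Rpl9* and *Rpl21* had gaps of -0.43 and -0.20.

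The gap depended on the probe in *Rpl23*, which has 3 detected probes. The brightest, near the top of the scale with raw signals from 50622 to 65652, had a gap of -0.19, whereas the other 2 had gaps of -1.14 and -1.05. Of the 9 genes with several detected probes, *Rpl7l1* also differed, with gaps of -0.67 and 0.03, and in the other 7 each probe had a gap below 0. The size still differed between probes in *Rpl31* (-2.49 and -1.48), *Rps24* (-2.32 and -1.13) and *Rpl38* (-1.70 and -0.78). It was closer in others, such as *Rps3* (-2.30 and -2.16).

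Among small subunit genes, *Rps4x*, an X-linked gene, had log2 signals of 13.835, 13.999 and 14.354 in WT and 14.382, 14.304 and 11.610 in *Cmah*-null samples. The third *Cmah*-null sample was 5.92-fold below the mean of the other 5 arrays. *Rps7* followed, with 11.05, 11.15 and 11.24 in WT and 11.69, 11.51 and 8.81 in *Cmah*-null samples, the first 2 above every WT sample and the third below. *Rps24*, *Rps19* and *Rps26*, like *Rps7* mutated in human Diamond-Blackfan anaemia, had gaps of -2.32, -1.74 and -1.28. *Rps14*, lost in the human 5q- syndrome, had a gap of -1.91. *Rps6*, the target of the S6 kinases, had 12.47, 12.42 and 12.94 in WT and 12.63, 12.88 and 11.33 in *Cmah*-null samples. *Rps3*, at the entry of the mRNA channel, had 13.21, 13.57 and 13.86 in WT and 13.51, 13.53 and 11.24 in *Cmah*-null samples.

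*Rps13* was the only one of the 23 detected small subunit genes in which replicate 3 was not the lowest array. It had 13.01, 13.04 and 13.22 in WT and 13.35, 13.51 and 13.19 in *Cmah*-null samples, with a log2 fold change of 0.26 (SE 0.11, adjusted p = 0.609 in limma). *Rps3a*, with a gap of -1.51, had the lowest log2 fold change of the 64 genes, at -1.06 (SE 0.55, adjusted p = 0.647). Its WT samples were themselves spread, at 9.66, 11.12 and 11.39, and the *Cmah*-null samples had 10.20, 9.85 and 8.93, so the groups overlapped. *Rps2* had 13.50, 13.59 and 13.54 in WT and 13.17, 13.42 and 12.92 in *Cmah*-null samples. Each *Cmah*-null sample of *Rps2* lay below each WT sample, with a log2 fold change of -0.37 (SE 0.14, adjusted p = 0.569) and of -0.24 (SE 0.10) without replicate 3. Among the 55 detected genes, *Rps2* was the only core gene whose groups did not overlap, and with *Rps27l* and *Rps4y2* it made 3 of 55, where 7.86% of detected probes were lower without overlap. *Rps19bp1* was the one detected gene higher without overlap, where 11.5% of detected probes were. *Rps2*, *Rps7* and *Rpl28* were singled out after their values were seen.

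**Figure D3:**
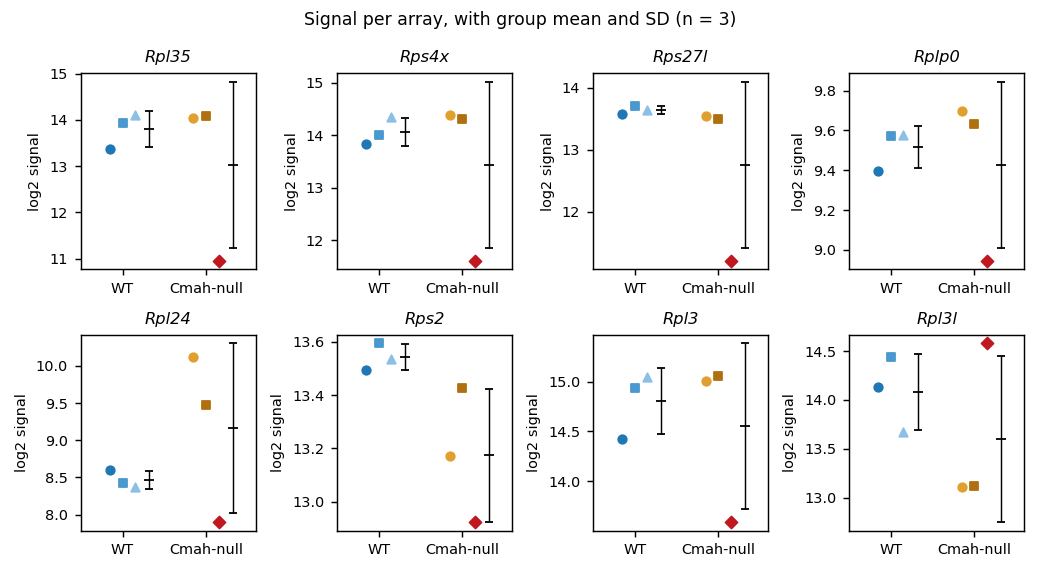
Log2 signal of 8 genes by sample, with the mean and SD of each group (n = 3) at its right; circles mark replicate 1, squares replicate 2, and triangles (WT) or diamonds (*Cmah*-null) replicate 3, and each panel has its own scale. *Cmah*-null replicate 3 is the lowest point in each panel except that of *Rpl3l*, where it is the highest.

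With *Cmah*-null replicate 3 left out, most core genes had slightly higher means in *Cmah*-null samples. This fit rests on *Cmah*-null replicates 1 and 2, the closest pair of arrays, and the labels do not state whether they are different animals. Their spread may be technical, so the standard errors and p-values of this fit may be too small. At an unadjusted p under 0.05, 10 of the 55 detected genes were higher (12.3% of detected probes), among them *Rpl12*, *Rpl22*, *Rpl24*, *Rpl31*, *Rpl41*, *Rps7* and *Rps13*. Only *Rpl3l* was lower (9.1% of detected probes). Of these, *Rpl24* (2.93% of detected probes) and *Rpl3l* (3.51%) also passed 1.5-fold. No member passed an adjusted p under 0.05 in limma, with a smallest value of 0.132. The 2 remaining samples were higher than the 3 WT samples without overlap in 17 genes (30.9%), against 22.4% of detected probes, and lower in 4, against 17.1%. *Rpl24*, mutated in the Belly spot and tail mouse, had the largest rise, with 8.60, 8.43 and 8.37 in WT and 10.11, 9.47 and 7.90 in *Cmah*-null samples. Its first 2 *Cmah*-null samples were above every WT sample and the third was below them. The log2 fold change of *Rpl24* was 0.70 (SE 0.55, adjusted p = 0.750 in limma), and 1.33 (SE 0.20, adjusted p = 0.140) without replicate 3.

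The number of beads per probe parted the arrays into a set with fewer beads (WT replicate 1 with *Cmah*-null replicates 1 and 2) and one with more (the other 3). Within the first, the median *Cmah*-null minus WT log2 difference of the 55 genes was 0.33. Within the second it was -1.39, and there *Cmah*-null replicate 3 was the one *Cmah*-null array. The like medians over all detected probes are not given, so these differences cannot be called particular to ribosomal protein genes. Neither set holds more than 2 samples of a group, and no test was made within them.

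Among the paralogues, *Rpl3l* went the other way. *Rpl3l* takes the place of *Rpl3* in the ribosomes of skeletal muscle and heart. It had log2 signals of 14.14, 14.44 and 13.67 in WT and 13.11, 13.12 and 14.58 in *Cmah*-null samples, so that the first 2 *Cmah*-null samples were the lowest of the 6 and the third was the highest. Its log2 fold change was -0.48 (SE 0.45, adjusted p = 0.788 in limma), and -0.97 (SE 0.23, adjusted p = 0.208) without replicate 3. The difference of *Rpl3l* minus *Rpl3* in log2 was -0.29, -0.50 and -1.37 in WT and -1.90, -1.94 and 0.99 in *Cmah*-null samples, with an exact two-sided permutation p of 0.8, where 3 against 3 samples cannot go below 0.1. The summed linear signal of 14 skeletal muscle markers, 13 of them detected on 6 arrays, was 461970, 469850 and 276580 in WT and 293430, 290390 and 331880 in *Cmah*-null samples. The markers in this sum went opposite ways on replicate 3. Among the 13 detected, the gap ran from -2.9952 in *Mylpf* to 1.24 in *Myh4*, with a median of 0.14, and was below 0 in 5. Replicate 3 was the lowest array in 3 of the 13 and the highest in 1. The part of the muscle markers in the *Rpl3l* values was not tested, and fewer muscle cells and less RNA per cell cannot be told apart in whole tissue.

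*Rps27l*, a p53 target, had 13.57, 13.70 and 13.65 in WT and 13.55, 13.50 and 11.21 in *Cmah*-null samples. Each *Cmah*-null sample was below each WT sample, the first 2 by little, and the log2 fold change was -0.89 (SE 0.64, adjusted p = 0.734 in limma) and -0.12 (SE 0.08) without replicate 3. *Rpl22l1*, which the Rpl22 protein holds down in other tissues, was near background at 7.40 to 8.69 and was not detected on the array of *Cmah*-null replicate 3, so its difference from *Rpl22* is not given. *Rpl36al* followed the core genes with a gap of -1.93. *Rps4y2* had 8.74, 8.82 and 8.53 in WT and 8.44, 8.49 and 8.24 in *Cmah*-null samples, with a log2 fold change of -0.31 (SE 0.12, adjusted p = 0.569).

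A further 9 probes belong to predicted loci described in the table as similar to ribosomal proteins, and they were looked up after the values above were seen. They were detected on 6 arrays, and *Cmah*-null replicate 3 was the lowest in 8 of them, with a median gap of -1.55. The exception was 1 of 2 probes for a locus similar to S9, with a gap of 0.64.

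Genes that work with the ribosome had smaller median gaps. A list called TOP translation factors here holds 18 genes, among them some that are not translation factors, such as *Npm1* and *Ubb*. Whether each of their mRNAs starts with a TOP tract was not checked. Of the 18, 17 were detected on 6 arrays. *Cmah*-null replicate 3 was the lowest in 10 of these (31.7% of detected probes), with a median gap of -0.25. The members went opposite ways: *Npm1*, a nucleolar chaperone of ribosome assembly, had a gap of -2.11 and *Eif4a2*, an mRNA helicase, one of -1.60. In contrast *Pabpc1*, the poly(A) binding protein, had a gap of 1.59 and *Eif3f*, an initiation factor subunit, one of 1.33. *Pabpc1* had 11.16, 12.46 and 12.05 in WT and 10.75, 10.93 and 13.06 in *Cmah*-null samples, the third being the highest. The elongation factor *Eef1a1* had a gap of -0.25. None of the 17 passed 1.5-fold with an unadjusted p under 0.05, and the median log2 fold change of the 17 was -0.14.

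Of 38 ribosome biogenesis factors, 30 were detected on 6 arrays, with a median gap of -0.23 and a median log2 fold change of 0.03. None was lower and 3 were higher at an unadjusted p under 0.05, *Rrp9* with a log2 fold change of 0.47, *Eif6* with 0.30 and *Nolc1* with 0.24, where 5.46% of detected probes were lower and 7.79% higher. The 10 detected genes of rRNA transcription had a median gap of -0.24, and the 8 detected genes of TOP mRNA control one of 0.00. In the latter *Eif4ebp2*, a repressor of cap-dependent translation, had 10.84, 9.50 and 9.45 in WT and 8.90, 9.29 and 11.87 in *Cmah*-null samples. The mitochondrial ribosomal proteins, which form a separate ribosome, had a median gap of -0.58 over 66 detected genes, and replicate 3 was the lowest in 41, where it was the lowest in 31.7% of detected probes. Of these 66, 10 were lower at an unadjusted p under 0.05 and none was higher, where 5.46% of detected probes were lower and 7.79% higher. Their median log2 fold change was -0.26, and -0.18 without replicate 3.

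**Figure D4:**
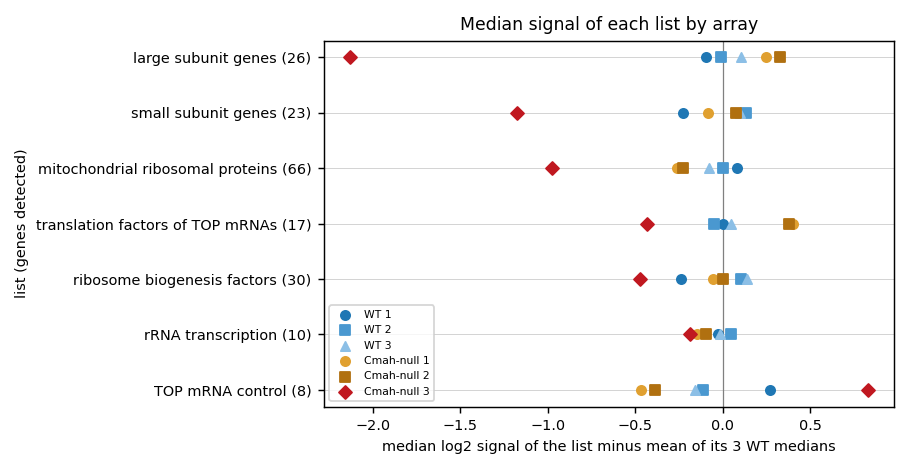
Median log2 signal of each gene list on each array, minus the mean of that list's 3 WT medians; the number of detected genes is in parentheses. Among the lists plotted, *Cmah*-null replicate 3 is furthest to the left in the large and small subunit genes and next in the 66 mitochondrial ribosomal proteins. The plotted distances do not rank the 2 subunits. The median of the gaps of single genes was -1.20 in the large and -1.51 in the small subunit genes.

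Other properties moved with the low array. Many ribosomal protein probes lie in short transcripts: the median start of the probe was base 295 of its transcript in the 55 genes and base 1977 in the other detected probes. Among probes starting within the first 500 bases, the median gap was -1.65 in 41 ribosomal protein genes and -0.48 in 1096 other probes. From base 501 to 1000 it was -0.88 in 7 and -0.24 in 1588, and from 1001 to 2000 it was -0.80 in 6 and 0.04 in 3562. The gap rose with the start in both sets, with a Spearman rho of 0.27 over the 55 genes and 0.32 over 12345 other probes, given as a description since all points share the same 6 arrays. Compared at like brightness, between 12 and 14 in mean log2 signal, the median gap was -1.80 in 23 genes and -0.07 in 1149 other probes. The part of transcript length or RNA quality in the low signals was not tested.

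**Figure D5:**
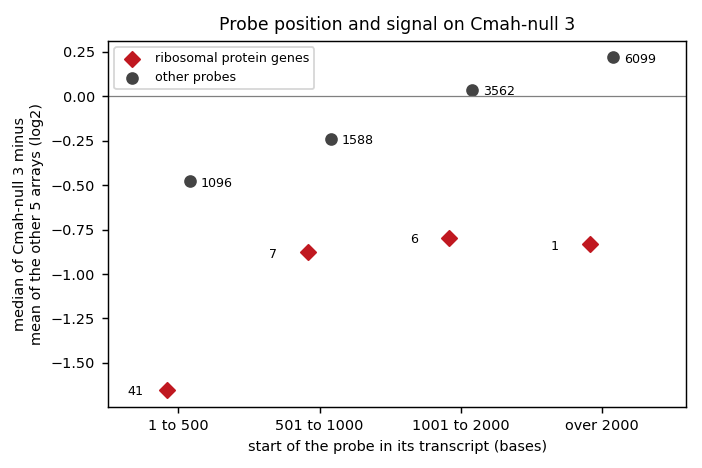
Median gap (*Cmah*-null replicate 3 minus the mean of the other 5 arrays, log2) by the base at which the probe starts in its transcript, for the ribosomal protein genes and the other probes detected on 6 arrays; the number beside each point counts its probes. The medians of ribosomal protein genes, from -1.65 to -0.80, lie below those of the other probes, from -0.48 to 0.22.

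The summed signals of some marker lists of other cell types differed on that array, and those of others lay within the WT range. The summed linear signal of 9 B cell markers, 3 of them detected on 6 arrays, was 3664 to 4564 in WT samples, 7691 and 8247 in *Cmah*-null replicates 1 and 2, and 16496 in replicate 3. *Cd74* made up most of it in each *Cmah*-null sample but not in each WT sample. Its log2 signals were 10.86, 10.34 and 11.48 in WT and 12.51, 12.66 and 13.80 in *Cmah*-null samples. *Cd79b*, a B cell receptor component, was instead lowest on replicate 3, with 8.82, 9.28 and 8.04 in WT and 8.13, 8.17 and 7.69 in *Cmah*-null samples, and *Ms4a1* and *Pax5*, which define B cells, were detected on no array. The summed signal of 9 brown fat markers, 6 of them detected on 6 arrays, was 37718 to 61867 in WT samples. It was 20375 and 20688 in the first 2 *Cmah*-null samples, and 14956 in the third. Among the 6 detected, replicate 3 was the lowest in 5 and the highest in *Cpt1b*, with a gap of 0.86. Of the hair cell markers, 6 of 10 were detected on 6 arrays, while *Pou4f3*, *Atoh1* and *Slc26a5* were detected on none. The summed signal of the 10 was 6398 to 8364 in WT and 7863 to 8599 in *Cmah*-null samples. Most of it came from *Myo6*, with a gap of -0.23, and *Espn*, with one of 1.13. For B cell and brown fat markers, *Cmah*-null replicates 1 and 2 also lay outside the WT range. The sums of neuron, myelin, cochlear support and stria, neutrophil and marrow, and bone and cartilage markers on replicate 3 lay within it. The neuron sum was 33132 there, against 29264 to 42645 in WT samples. The erythroid sum on replicate 3 was below the WT range and the T and NK cell sum above it. The part of these markers in the ribosomal protein values was not tested.

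The gap can also be set beside the sequence at the start. The median gap was -1.69 in the 25 detected core genes with a pyrimidine run in the window and -1.24 in the 12 without. In the 6 detected core genes with the C at the annotated start itself, it was -1.51. *Rps4x*, shown above without a run, had a gap of -2.56, and *Rps10*, with a run of 13 bases across the start, one of -0.86. With CCGGAA in the promoter the median gap was -1.69 in 20 genes, and without it -1.03 in 17. These are descriptions of the 37 detected core genes with a matched start, and no test was made.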

How the data were processed

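Total RNA of 3 WT and 3 *Cmah*-null samples of cochlear tissue was measured on 1 array per sample. The authors deposited a raw table with bead intensity, bead standard error, bead number and a detection p-value per probe, and a table of log2 values. The deposited log2 values equalled quantile-normalized log2 bead signals without background correction (largest difference 5.0e-07). The columns of the second group are named "old" and were matched to the *Cmah*-null samples by their numbers. Another 12 columns repeating signals, and the authors' own fold changes and tests, were not used. Between 13873 and 15223 probes were detected on an array, with the fewest on that of *Cmah*-null replicate 3. This array also differed most from the others over all detected probes. The number of arrays limits the precision.

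Groups were compared with limma 3.58.1 in R 4.3.3 (lmFit, eBayes, two-sided, no covariate), fitted and adjusted (Benjamini-Hochberg) over all 25697 probes. The code was tested on simulated data. Single differences used exact permutation tests. The members and lists were chosen with earlier results of these data known. Named were the 10 largest rises and falls, 15 of 20 preset members found on the array, the paralogues, and 1 rise and fall of each related list, with others named after their values were seen. Alternatives were neqc (offset 16), median scaling, keeping probes with detection on 3 or more arrays, averaging all probes of a symbol, a trended robust variance prior, a block for bead number (split at 36) or replicate number, averaging *Cmah*-null replicates 1 and 2, core genes alone, and leaving out each array. Plots used Python 3.11.15 with matplotlib 3.10.9. One detected member is included in the counts and fits but is not reported here by name or in the plot by gene.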

Additional observations from a re-analysis of the deposited data

How the results depend on the processing

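No setting gave a ribosomal protein gene an adjusted p under 0.05 in limma, and the smallest adjusted p over 15 alternatives was 0.104. Genes lower at an unadjusted p under 0.05 numbered 2, and 3 with the bead block, 1 with *Cmah*-null replicates 1 and 2 averaged, with neqc or in core genes alone, 0 with the detection filter, median scaling or the trended robust prior, and 0 to 2 with an array left out. Genes higher numbered 1, and 0 with the averaged replicates, the detection filter, core genes alone or the replicate block, 2 with averaged probes or median scaling, and 0 to 12 with an array left out, the 12 without *Cmah*-null replicate 3. The 12 are counted over the 64 genes, detected or not. Of them, 10 are among the 55 detected genes, where 12.3% of detected probes were higher. In the fit of all 6 arrays, 5.46% of detected probes were lower and 7.79% higher. At 1.5-fold with an unadjusted p under 0.05 there were 0 (2.64% of detected probes lower and 2.51% higher), 1 with median scaling and 0 to 2 with an array left out. Same-numbered samples did not deviate together from their group means (correlations of 0.02, -0.17 and 0.01 over 12410 probes). In the *Cmah*-null group these deviations mostly reflect replicate 3 against replicates 1 and 2, so the correlations cannot decide whether the numbers pair the samples. The replicate block left the median log2 fold change at -0.30.

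Median scaling turned the median log2 fold change to 0.052 in ribosomal protein genes, 0.085 in large and 0.11 in small subunit genes, 0.24 in the TOP translation factors, 0.13 in TOP mRNA control and 0.088 in mitochondrial ribosomal proteins, and moved biogenesis factors to 0.23. With an array left out these medians ran from -0.48 to 0.16, -0.37 to 0.15, -0.62 to 0.18, -0.26 to -0.07, -0.08 to -0.02, -0.35 to -0.17 and -0.046 to 0.049, in that order. The median of rRNA transcription was 0.01, and -0.040 with replicates 1 and 2 averaged, -0.034 with averaged probes, -0.043 with the bead block, -0.061 with the detection filter and -0.039 to -0.00098 with an array left out. *Rpl3l* minus *Rpl3* was 0.25 with the averaged replicates, 0.15 with the bead block and -1.20 to 0.27 with an array left out.

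Of 36 named genes, 17 changed sign without *Cmah*-null replicate 3. With an array left out the log2 fold change ran from -1.30 to 0.26 in *Rpl35*, -1.14 to 0.12 in *Rpl39*, -1.07 to 0.20 in *Rpl34*, -1.06 to 0.17 in *Rps24*, -1.11 to 0.28 in *Rps4x*, -1.05 to 0.27 in *Rpl31* and -0.99 to 0.23 in *Rpl36a*. It ran from -0.23 to 0.15 in *Rplp0*, -0.65 to 0.10 in *Rplp1*, -0.63 to 0.15 in *Rps6*, -0.74 to 0.20 in *Rps19*, -0.24 to 0.14 in *Rpl13a*, -0.51 to 0.23 in *Rpl3*, -0.54 to 0.15 in *Rps26*, -0.91 to 0.10 in *Rps14* and -0.88 to 0.17 in *Rpl36al*. Among dimmer or rising genes it ran from -0.00018 to 0.17 in *Rpl14*, -0.073 to 0.29 in *Rpl9*, -0.21 to 0.43 in *Rpl22*, -0.048 to 0.13 in *Rpl21* and -0.19 to 0.034 in *Rpl39l*. Median scaling gave -0.0043 in *Rpl14*, 0.25 in *Rplp0*, 0.013 in *Rplp1*, 0.16 in *Rps6*, 0.035 in *Rps19*, 0.37 in *Rpl13a*, 0.14 in *Rpl3*, 0.17 in *Rps26* and 0.046 in *Rpl7l1*. Averaging the near-identical replicates gave -0.012 in *Rpl9*, -0.16 in *Rpl22* and -0.0084 in *Rpl21*, and the bead block gave -0.18 in *Rpl22* and 0.033 in *Rpl39l*. The cause of these changes was not tested.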
